A study of Caenorhabditis elegans with 2 samples.

Results

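The subject here was the set of RNA 3' ends that lay inside annotated coding sequence in Caenorhabditis elegans nuclei. The set was chosen from the measured reads. 3' end positions within 24 nt of a local peak were joined per strand, clusters with at least 20 reads over both libraries were kept, and those whose peak fell in a coding interval of a gene on the same strand became members. This gave 697 clusters of 15049 (4.63%), in 591 genes. Both libraries came from strain JM149, grown as liquid cultures of mixed stages at 25 °C and strained to enrich adults. The input library was made from nuclei of mixed tissues with the molecule label total RNA. The sorted library was made from nuclei collected by fluorescence-activated sorting, with the tissue label intestine and the molecule label nuclear RNA. Each group held 1 library, and the labels do not say which nuclei carried the fluorescent mark.

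A messenger RNA normally ends after its stop codon, where the nascent transcript is cleaved downstream of a polyadenylation signal and a poly(A) tail is added. An end before the stop codon leaves a transcript with no stop codon in frame, and such RNAs are substrates of nonstop decay when they reach ribosomes. Ends inside genes can also be read where an oligo(dT) primer binds a run of A within a longer RNA, and the libraries were made with such a primer. No genome sequence was used here, so the part of such priming in these clusters was not tested.

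Nuclear chromosomes carried 9220245 reads of the input library and 4702544 of the sorted library, the deeper library being input. Levels are given in RPM, reads scaled to 1000000 of these nuclear reads, and a ratio is sorted over input RPM. The limit set by seeing no read is 3 reads, equal to 0.325 RPM for input and 0.638 RPM for sorted nuclei. Ratios carry an exact binomial 95% interval. Such intervals and limits cover counting error only, since amplified reads that carry no molecular identifier may be copies of a single molecule. With 1 library per group there was no replicate check, and no difference was tested. Of 10 intestinal marker genes, 8 had more RPM in sorted nuclei, their summed level going from 13723 to 16026 RPM. The esterase gene ges-1 had a ratio of 3.22 and the intestinal transcription factor gene elt-2 one of 3.19, while the yolk genes vit-2 and vit-6 had 0.728 and 0.748. The germ line markers were lower in 4 of 4 genes (4840 RPM summed in input and 2269 in sorted nuclei), the pharynx markers in 3 of 3 and the hypodermis markers in 3 of 4. Of the muscle markers 1 of 4 was higher and of the neuronal markers 3 of 4. Whether tissue makeup had a part in the ratios below was not tested, and fewer nuclei of a type and less RNA per nucleus cannot be told apart in these bulk libraries.

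Most members were small. A median member had 38 reads over both libraries at 5 positions, and 455 of 697 (65.3%) had fewer than 50 reads, while 45 had 200 or more. The 10 largest held 31.7% of all reads in members. Of the host genes 521 had a single member, 43 had 2 and 27 had 3 or more, with a maximum of 5 in vit-2 and rps-25. Host genes were abundantly read: 84 of the 200 genes with the most reads (42%) had a member, against 5.42% of the 10689 genes with at least 20 reads. A cluster needed a minimum of reads to become a member, so genes with more reads could pass more easily. The contrast is therefore favoured by the rule and shows no separate trait of the host genes. Ribosomal protein genes alone held 99 members (14.2%), a share that was not set against their read levels. Members made up 3.90% of the clusters on X and up to 5.10% on V.

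Members lay along the whole coding sequence and were dense near its end. The last coding exon held 259 members (37.2%), although these exons make up 13.4% of the coding nucleotides of the host transcripts. A median member lay 60.2% of the way through its coding sequence and 330 nt before the stop codon. Only 33 members were within 24 nt of an annotated 3' end, 20 of them an end of the same gene and 13 an end of another gene. A further view of the annotation gave 52 members that another isoform or gene places outside coding sequence, 26 of them in a 3' UTR and 21 in an intron. With shifts of 10 nt to either side 610 members stayed in coding sequence and 87 did not.

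Coding-sequence ends took a smaller share of the sorted library than of the input library. They held 45599 input reads, 0.495% (0.490 to 0.499) of the nuclear reads, and 18999 sorted reads, 0.404% (0.398 to 0.410), a ratio of 0.817 (0.803 to 0.831). Without the 10 largest members these shares were 0.333% and 0.285%. With each position counted once per library, only 37 members still reached the minimum of 20, and these held 0.256% and 0.250%. They are a smaller and different set, so their shares do not show what became of the gap over all members. Without a minimum of reads, 20432 coding-sequence clusters held 0.888% of input and 0.706% of sorted reads, a ratio of 0.795 (0.785 to 0.805). Clusters of any size near annotated 3' ends had a ratio of 0.934 and those elsewhere in 3' UTRs 1.24. Intron clusters had 0.853 over their summed reads, although the median log2 ratio of the 510 with at least 20 reads was 1.52.

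Between the libraries, single members differed far more often than other clusters in the downward direction. A cluster was called where its interval lay wholly past 4-fold. Of the members 75 (10.8%) were called lower in sorted nuclei, where 1.09% of all clusters were, and 48 (6.89%) were called higher, where 6.53% of all clusters were. The other 574 were called in neither direction. With the interval past 2-fold, 219 members were lower (31.4%, against 6.17% of all clusters) and 101 higher (14.5%, against 15.6%). So the share called higher was near that of all clusters, and the share called lower was above it. The split differed by chromosome, a difference that was not tested. At 4-fold 14 members were lower and 3 higher on I, 18 and 6 on II, 16 and 3 on III and 13 and 10 on IV, whereas on X 8 were lower and 8 higher, and on V 6 were lower and 18 higher. The share of all clusters called was not worked out by chromosome, so these counts do not show a trait particular to members. The median log2 ratio of members was -1.58 on I, -0.43 on X and 5.1e-04 on V, beside -0.071, 0.24 and 0.24 for the other clusters there.

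Many members were not seen in sorted nuclei at all. In sorted nuclei 114 members (16.4%) had 0 reads, against 98 (0.683%) of the other clusters, and 36 of the 114 were called lower at 4-fold. At 0 sorted reads that call depends on the input count alone, and the smaller counts could not reach it. In input 3 members (0.430%) had 0 reads. The median log2 ratio, taken with 0.5 reads added to each library, was -0.87 over members, with quartiles of -3.28 and 1.09, against 0.087 over the other clusters. Placing members at 0 reads on their bound gave a median of -0.93.

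**Figure D1:**
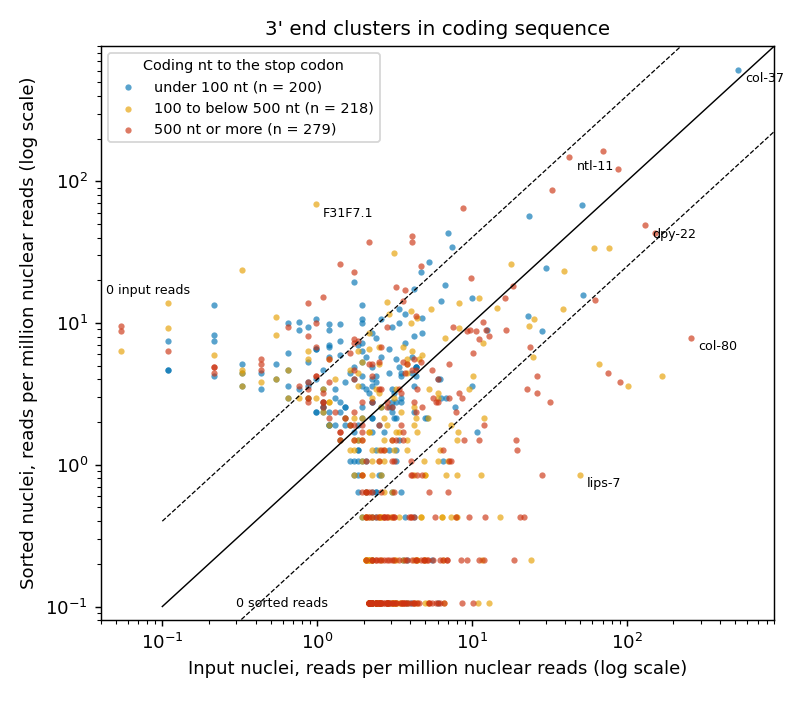
Level of each of the 697 coding-sequence clusters in input and sorted nuclei, in RPM on log axes, coloured by coding nucleotides to the stop codon. The solid line marks equal levels and the dashed lines 4-fold, clusters with 0 reads are drawn at a nominal place, and the row at the bottom holds the 114 clusters with 0 sorted reads.

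The downward calls were found at every read number, but the median moved with depth. Among members with 20 to 49 reads 6.15% were called lower at 4-fold, with 50 to below 200 reads 17.8%, and with 200 or more 26.7%. Other clusters of the same sizes gave 0.405%, 0.828% and 0.641%. The input library was the deeper, so a cluster seen mainly in input reached 20 reads more easily. With input thinned to the depth of the sorted library, a comparison chosen after the data were seen, 440 members of 12703 clusters remained and their median was -0.043, against 0.13 for the others. Of these 67 were lower at 4-fold (15.2%, against 1.14% of all clusters there) and 34 higher (7.73%, against 6.01%). At 2-fold 118 were lower (26.8%, against 5.31%) and 85 higher (19.3%, against 15.6%). At the limit of the rule, 83 coding-sequence clusters with 18 or 19 reads had a median of -1.18 and the 71 members with 20 or 21 reads one of -1.99.

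**Figure D2:**
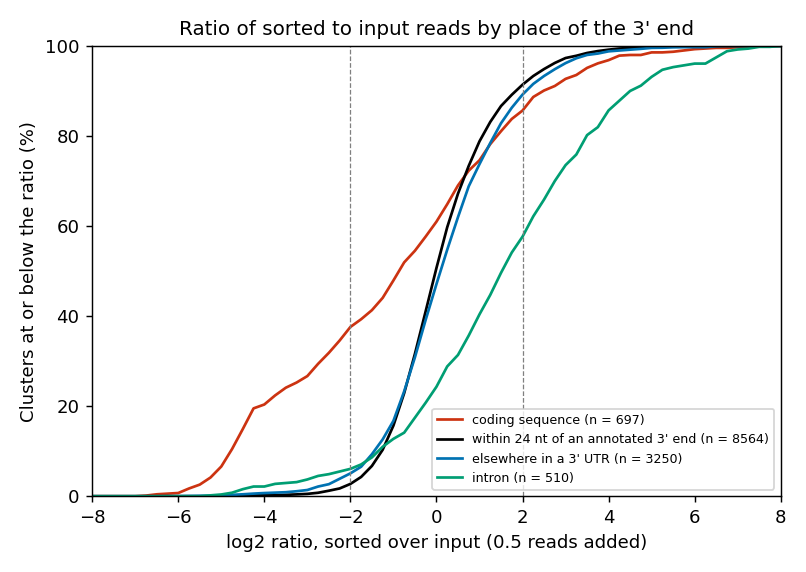
Cumulative share of clusters (%) against the log2 ratio of sorted over input reads, for ends in coding sequence, within 24 nt of an annotated 3' end, elsewhere in a 3' UTR and in introns; dashed lines mark 4-fold. The coding-sequence curve leaves the others on the left, where 114 members with 0 sorted reads lie, and on the right lies between the curves of annotated ends and introns, whose medians are -0.020 and 1.52.

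The 2 directions were not spread evenly along the coding sequence. Within 100 nt of the stop codon 200 members had a median log2 ratio of 0.65, with 18 called higher (9.00%) and 4 lower (2.00%) at 4-fold. From 100 to below 500 nt before it, 218 members had a median of -1.38, with 11 higher (5.05%) and 24 lower (11.01%). At 500 nt or more, 279 members had a median of -2.10, with 19 higher (6.81%) and 47 lower (16.8%). Of all clusters 6.53% were higher and 1.09% lower. Summed reads gave ratios of 1.39 (1.35 to 1.43), 0.537 (0.518 to 0.557) and 0.681 (0.663 to 0.699) for these 3 classes.

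By exon, the 259 members of a last coding exon had a median of 0.40, with 24 higher (9.27%) and 13 lower (5.02%). The 438 in earlier exons had -1.99, with 24 higher (5.48%) and 62 lower (14.2%), and 99 of them had 0 sorted reads. At equal depth the members within 100 nt of the stop codon had a median of 0.85 (n = 145), those at 100 to below 500 nt -0.88 (n = 126) and those farther away -0.76 (n = 169). At that depth 4, 23 and 40 of them were lower at 4-fold (2.76%, 18.3% and 23.7%, against 1.14% of all clusters). There 12, 9 and 13 were higher (8.28%, 7.14% and 7.69%, against 6.01%). The share called higher was thus not far from that of all clusters at each distance, and lower members lay mostly away from the stop codon.

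**Figure D3:**
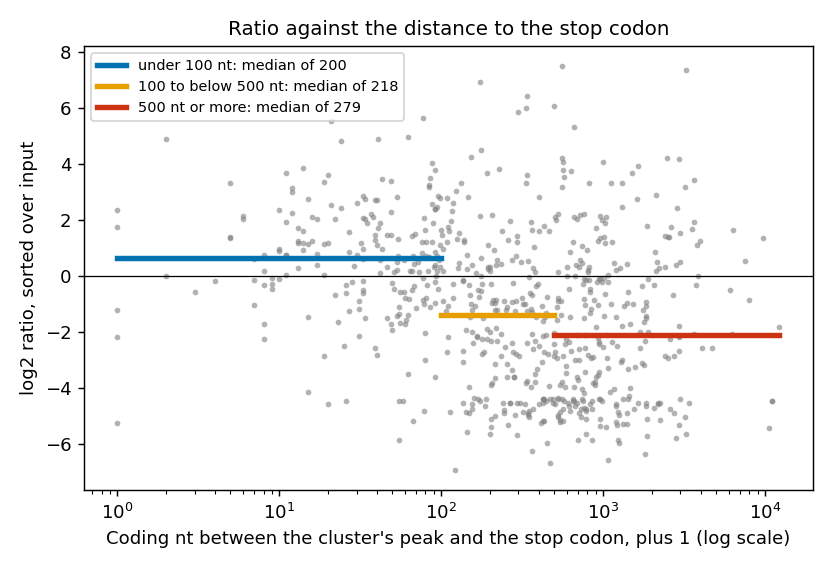
log2 ratio of sorted over input reads for each of the 697 members against its distance to the stop codon in coding nucleotides (plus 1, log axis). Bars mark class medians of 0.65, -1.38 and -2.10, and the band of points near the bottom right is made mostly of members with 0 sorted reads.

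Inside transcripts the contrast was plainer in genes with 3 or more members than in those with 2. The member nearest the stop codon had a higher ratio than the farthest in 21 of 27 genes with 3 or more (77.8%), in 20 of 43 genes with 2 (46.5%) and in 41 of all 70 (58.6%). The intervals were apart in this direction in 16 of the 70 genes and in the opposite direction in 6. In genes with 2 members these counts were 6 and 3. Where the nearest and farthest sites lay 100 nt or more apart, the nearest had the higher ratio in 36 of 55 genes (65.5%). The relation to distance had been seen over all members, these included, so the counts are not separate evidence of it.

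In vit-2 on X, which encodes a vitellogenin, a yolk protein precursor made in the adult intestine, the site 1303 nt before the stop codon had 219 reads in input and 32 in sorted nuclei, a ratio of 0.286. The site at 900 nt had 35 and 1 reads and that at 300 nt 63 and 4. Close to the stop codon, at 75 nt, the counts were 21 and 19, a ratio of 1.77, and at 25 nt 28 and 11, a ratio of 0.770. The other reads of vit-2 had a ratio of 0.734 (0.716 to 0.753), so the distal site at 25 nt was near the level of the gene and the first 3 sites were below it.

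In vit-6 on IV, another vitellogenin gene, all 3 sites were upstream and all were low. The site at position 8265942, 361 nt before the stop codon, had 222 reads in input against 1 in sorted nuclei, a ratio of 0.00883 (2.23e-04 to 0.0497), while the rest of the gene had 0.756. With clusters of 48 nt the ratio of this site was 0.0335. The sites 747 and 219 nt before the stop codon had 21 and 0, and 24 and 2 reads. Reads that map equally to several vitellogenin genes could be placed in either, and the sources used here do not say how they were handled.

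The aspartyl protease gene asp-6 on V had 66 reads in input and 5 in sorted nuclei 706 nt before the stop codon, a ratio of 0.149. Its sites at 271, 53 and 4 nt had ratios of 0.506, 1.60 and 2.61, and the rest of the gene 1.45. In asp-1, a gene of the same family, the site at 36 nt had 69 and 161 reads, a ratio of 4.57 (3.43 to 6.16), that at 582 nt 26 and 2, and that at 833 nt 23 and 0. The rest of asp-1 had a ratio of 2.76.

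The ribosomal protein gene rps-30 on V repeated the order over a short stretch. Its site at 113 nt had 140 reads in input and 2 in sorted nuclei, a ratio of 0.028, that at 83 nt 21 and 17, and that at 13 nt 27 and 31, a ratio of 2.25. In rps-25 on IV the site at 254 nt had 106 and 4 reads, a ratio of 0.0740, and the sites at 217, 98, 71 and 1 nt had 0.523, 1.21, 1.40 and 0.980. The rest of rps-25 had 0.726. The order was not general: in far-2, a fatty acid and retinol binding protein gene, the site nearest the stop codon, at 38 nt, had 99 and 8 reads, a ratio of 0.158, and that at 154 nt 1.28.

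The lowest ratios among large members belonged to genes of varied function. The cuticle collagen gene col-80 had 2406 input reads (261 RPM) and 37 sorted reads (7.87 RPM) at position 10707410 on II, in exon 2 of 2 and 731 nt before the stop codon, a ratio of 0.0302 (0.0212 to 0.0417). The rest of col-80 had a ratio of 0.335 (0.284 to 0.393), so the site was further below input than the rest of the gene. The ubiquitin-like and ribosomal fusion gene ubl-1 on III had 2 large members, at 3068400 in exon 1 of 3 with 1547 and 20 reads, a ratio of 0.0253 (0.0154 to 0.0393), and at 3068675 in exon 2 with 943 and 17 reads, a ratio of 0.0353 (0.0205 to 0.0569). The rest of ubl-1 had 0.411 (0.346 to 0.486).

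The lipase gene lips-7 had 457 and 4 reads at 554295 on II, a ratio of 0.0172 (0.00466 to 0.0442), and ZK84.1 on II had 837 and 18, a ratio of 0.0422. T21H3.1 had 172 reads in input against 1 in sorted nuclei, a ratio of 0.0114 (2.87e-04 to 0.0644), while the rest of the gene stood above input at 1.35. C50F2.2 had 12.9 RPM in input and 0 reads in sorted nuclei at 3888093 on I, at least 20.2-fold lower by the limit of 3 reads. Low sites were thus found in genes whose other reads were lower in sorted nuclei, as in col-80, and in genes whose other reads were higher.

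The highest ratios belonged to members with few or no input reads. F31F7.1 had 9 input and 324 sorted reads (0.976 and 68.9 RPM) at 6277328 on V, 57 nt upstream of an annotated end of the same gene, a ratio of 70.6 (36.7 to 156). The rest of F31F7.1 had 10.96 (8.89 to 13.6), so the gene was higher as a whole. F19B2.5 on V had 3 and 112 reads at 20158647, a ratio of 73.2 (24.4 to 360), and 1 and 43 reads at 20158608, and its rest had 15.1. The nuclear hormone receptor gene nhr-17 had 1 and 65 reads, a ratio of 127 (22.1 to 5110), with 8.77 in its rest, and the chemoreceptor gene srz-100 had 2 and 63.

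A further 3 members had no input read, and their folds are lower bounds. F26A3.4 had 0 and 45 reads, at least 29.4-fold higher, kcc-2, a potassium and chloride cotransporter gene, 0 and 41 reads, at least 26.8-fold, and the small heat shock protein gene hsp-16.2 0 and 30, at least 19.6-fold. The rest of hsp-16.2 had a ratio of 7.57 (5.84 to 9.94). All of these genes were above input over their other reads too.

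Of the 8 members with the most input reads 4 were called lower at 4-fold, the sites of col-80, ubl-1 and ZK84.1 given above. Of the 8 with the most sorted reads 2 were called higher, in F31F7.1 and C16H3.3. Choosing by the reads of 1 library favours ratios on its side, so these counts alone show no direction. Members with at least 20 input reads had a median log2 ratio of -2.13 and those with at least 20 sorted reads 1.50. Other clusters chosen likewise had -0.17 and 0.35. The largest of all, col-37 on V, a collagen gene, had 4831 reads in input and 2878 in sorted nuclei (524 and 612 RPM) at 12166738, 52 nt before the stop codon, a ratio of 1.17 (1.11 to 1.22). It held nearly all reads of its gene, whose others were 10 and 1. The site of ZC247.1 on I had 1405 and 204 reads, a ratio of 0.285 (0.245 to 0.330), and that of dpy-22 on X, which encodes a subunit of the Mediator complex, 1213 and 231, a ratio of 0.373 (0.323 to 0.430).

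More sorted than input RPM was seen at a site of ugt-50 on X, a glucuronosyltransferase gene, with 645 and 772 reads (70.0 and 164 RPM), a ratio of 2.35 (2.11 to 2.61). It lay 72 nt upstream of a shorter annotated end of the gene. A site of ntl-11, a gene of the CCR4-NOT deadenylase complex, had 392 and 693 reads, a ratio of 3.47 (3.06 to 3.93), 128 nt upstream of such an end. The lectin gene clec-80 had 304 and 406 reads, a ratio of 2.62 (2.25 to 3.05).

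By gene family, ribosomal protein genes had 99 members in 59 genes with a median log2 ratio of -0.51, beside -0.27 for their other clusters. None was higher at 4-fold, where 6.53% of all clusters and 6.89% of all members were. There were 6 lower, where 1.09% of all clusters and 10.8% of all members were. The largest of these were rpl-41.2 with 279 and 114 reads, a ratio of 0.801, rpl-14 with 260 and 41, a ratio of 0.309 (0.217 to 0.431), and rpl-38 with 134 and 60, a ratio of 0.878. At equal depth 55 of these members had a median of -0.18. Of them 0 were higher (against 6.01% of all clusters) and 4 lower (7.27%, against 1.14% of all clusters and 15.2% of all members). Translation factor genes had 7 members with a median of -1.51, of which 2 were lower at 4-fold, where 1.09% of all clusters were. In eef-2, the elongation factor that moves the ribosome along, the site had 49 input reads and 0 sorted reads, at least 8.33-fold lower, while its rest had a ratio of 1.07. The sites with the most reads in eif-3.K, an initiation factor subunit gene, and in eef-1A.1, which delivers tRNA to the ribosome, had 48 and 10, and 28 and 13 reads and were not called.

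The 5 members on the chromatin list had a median of -3.60. Of them 2 were lower at 4-fold and 4 at 2-fold, where 1.09% and 6.17% of all clusters were. The SWI/SNF ATPase gene swsn-4 had 49 and 0 reads, at least 8.33-fold lower. The bromodomain gene bet-1 had 177 and 7, and the retinoblastoma-like gene lin-35 59 and 2. Only swsn-4 and bet-1 were called at 4-fold. The helicase gene ddx-10 had 28 and 0 reads, mog-5, a helicase gene of germ line sex determination, 22 and 0, and the splicing factor gene prp-39 25 and 0. All 3 on the helicase and splicing list were lower at 2-fold, where 6.17% of all clusters were. At their read numbers none could be called at 4-fold, even with 0 sorted reads. Both lists are short and partial: the chromatin gene lin-40 and the helicase gene drh-3, on neither list and named with their values in view, had 40 and 53, and 24 and 32 reads and were not called. In the proteasome list rpt-4, an ATPase of the regulatory particle, had 93 and 0 reads at 43544 on II, at least 15.8-fold lower, and the core subunit gene pbs-4 45 and 1. The regulatory subunit gene rpn-1 went the opposite way, with 43 and 118 reads, a ratio of 5.38 (3.77 to 7.82).

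Gut genes (proteases, lysozymes and lipid enzymes of the intestine) had 37 members in 21 genes with a median of 1.25, beside 0.99 for their other clusters. At 4-fold 0 were higher and 0 lower. At 2-fold 12 were higher and 3 lower, where 15.6% and 6.17% of all clusters were. The lysozyme gene lys-7 had 472 and 317 reads 16 nt before the stop codon, a ratio of 1.32 (1.14 to 1.52), and asp-5 58 and 67 reads, a ratio of 2.26 (1.57 to 3.28). At equal depth 24 of these members had a median of 1.53. The 7 members in C-type lectin genes had a median of 1.39. At 4-fold 1 was higher and 1 lower, where 6.53% and 1.09% of all clusters were. The lower was clec-145, with 199 and 2 reads, a ratio of 0.0197 (0.00237 to 0.0721), and clec-83 had 18 and 34.

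Vitellogenin genes had 11 members in 4 genes with a median of -1.78. At 4-fold 1 was lower, where 1.09% of all clusters and 10.8% of all members were. At 2-fold 5 were lower, where 6.17% of all clusters and 31.4% of all members were. Germ line and oocyte genes had 3 members: perm-2 and perm-4, which encode eggshell proteins, had 21 and 0, and 27 and 0 reads, and nos-3, a Nanos family gene, 49 and 16. Of these 2 were lower at 2-fold, where 6.17% of all clusters were. None was lower at 4-fold, a call that perm-2 and perm-4 could not reach at their read numbers. The 6 members found by collagen symbols, dpy-22 among them although it encodes no collagen, had a median of -0.41. At 4-fold 1 was lower, col-80, where 1.09% of all clusters were. The muscle list had 1 member, in unc-89, with 21 and 2 reads, the chaperone list hsp-16.2 and the nuclear hormone receptor list nhr-17. Histone, vacuolar ATPase and neuronal lists had 0 members.

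Some members stood at the end of an upstream neighbour. There were 20 within 100 nt of another gene's annotated 3' end, all 20 in the first coding exon of their own gene, a median of 23.5 nt from the start codon. Their median log2 ratio was -0.13, with 1 higher and 1 lower at 4-fold. A site in ilcr-2, an interleukin-17 receptor gene, lay 3 nt from the end of the mitochondrial ribosomal protein gene mrps-16 and had 805 and 576 reads, a ratio of 1.40 (1.26 to 1.56). Sites in F29B9.5 and ced-9, the latter encoding the worm's Bcl-2 protein, lay by the ends of the SUMO-conjugating enzyme gene ubc-9 and of mev-1, which encodes a subunit of succinate dehydrogenase, and had 358 and 59, and 76 and 15 reads. The 1 called lower was in T24H7.9, 87 nt from the end of tat-4, with 112 and 2 reads, and the 1 called higher in fbxa-104 by the end of fbxa-209, with 9 and 47. For such sites the gene of the read cannot be told apart from the position alone.

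Against the rest of its own gene, a coding-sequence end had an interval below that of the rest more often than above it, but the size of the difference moved with depth. For 624 members the gene had at least 20 other reads, and their median log2 ratio was -0.90 against 0.062 for the rest of the gene. The median difference was -1.05, and 401 (64.3%) were below their gene. Intervals of site and rest were apart with the site below in 245 (39.3%) and above in 90 (14.4%). At equal depth 376 members had a median of 0 against 0.13 for the rest, the median difference was -0.18, and 194 (51.6%) were below their gene. Their intervals were apart with the site below in 116 (30.9%) and above in 58 (15.4%). At the libraries' own depths, intron ends, treated likewise, were below in 11.2% and above in 37.5% of 445, and ends in 3' UTRs away from annotated ends in 12.3% and 14.4% of 2604. The difference at these depths was found in genes of either direction: where the rest was above input the median difference was -0.72 (n = 328), and where it was below, -1.31 (n = 296). By distance to the stop codon, and over all members, the median difference was 0.39 within 100 nt, -1.47 from 100 to below 500 nt and -2.15 at 500 nt or more. Neither this split nor the one by direction was worked out at equal depth.

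**Figure D4:**
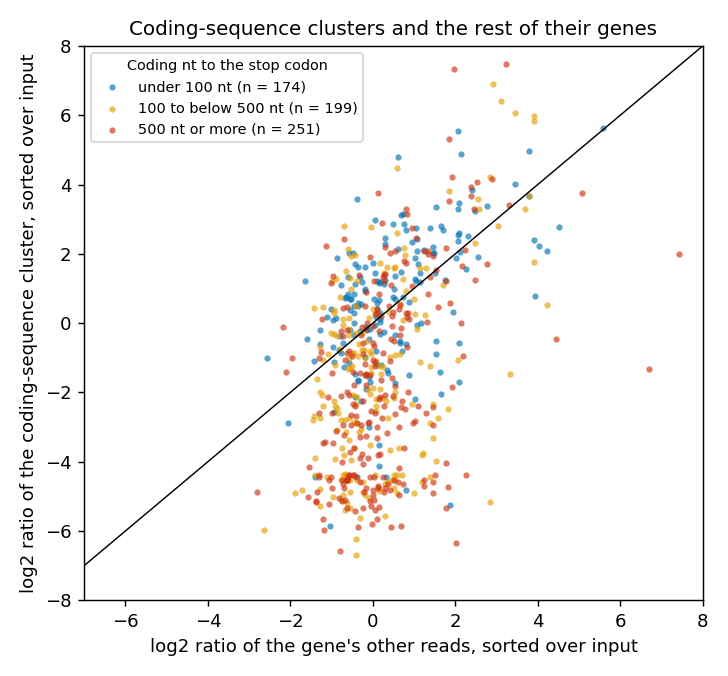
log2 ratio of each of 624 coding-sequence clusters against that of the other reads of its gene, coloured by coding nucleotides to the stop codon, with a line of equality. Of the points 401 lie below the line, and the members within 100 nt of the stop codon lie mostly near or above it.

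Within genes, coding-sequence ends lost share more often than they gained it. In 477 genes that had 20 or more reads in both libraries, the median share of a gene's reads at its members was 8.96% in input and 2.76% in sorted nuclei. These medians are at the libraries' own depths, where the deeper input favours members seen mainly in input. They were not worked out at equal depth, so the size of the drop may be overstated. A share was called changed where it differed by at least 20 percentage points with intervals apart. It was lower in 51 genes (10.7%), where 5.15% of all clusters of genes with several clusters were called lower, and higher in 17 (3.56%), where 5.33% were. The gene counts sum all members of a gene, while that background counts single clusters, so the units are not alike. Intron ends had the opposite split, with 78 of 372 genes (20.97%) higher and 19 (5.11%) lower. At equal depth 36 of 306 genes (11.8%) were lower and 12 (3.92%) higher. The share of all clusters called in this way was not worked out at that depth, so these counts have no background beside them.

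Among genes with a lower share, ubl-1 went from 75.7% (74.2 to 77.1) of reads to 18.4% (13.3 to 24.3) and col-80 from 70.1% (68.6 to 71.7) to 17.5% (12.6 to 23.2). In fcd-2, a gene of the Fanconi anaemia DNA repair pathway, the share went from 62.6% (56.9 to 68.1) to 3.45% (0.420 to 11.9), and in the splicing factor gene sfa-1 from 54.9% (46.4 to 63.3) to 0.862% (0.0218 to 4.71). The ced-9 share went from 100% (95.3 to 100) of 76 reads to 36.6% (22.1 to 53.1) of 41, but its site is the one by the end of mev-1, so these reads may belong to either gene. The site of sfa-1 had 78 and 1 reads while the rest of its gene had a ratio of 3.52 (2.57 to 4.86).

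Among genes with a higher share, rpn-1 went from 8.92% (6.53 to 11.8) to 46.1% (39.9 to 52.4), and C16H3.3 from 50% (42.1 to 57.9) to 86.4% (82.4 to 89.8), its site having 81 and 305 reads and a ratio of 7.38 (5.76 to 9.55). F31F7.1 went from 9.48% (4.83 to 16.3) to 36.9% (33.8 to 40.1). The gene of the Ro RNA-binding protein, rop-1, went from 3.17% (1.17 to 6.78) to 30.1% (22.8 to 38.3), and ech-9, of the enoyl-CoA hydratase family, from 14.5% (7.17 to 25.0) to 46.6% (39.6 to 53.7). In eat-16, which encodes a regulator of G protein signalling, the share went from 46.6% (41.0 to 52.2) to 78.9% (69.01 to 86.8), although the ratio of its site was 0.928 (0.690 to 1.24): there the rest of the gene was lower, at 0.217.

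**Figure D5:**
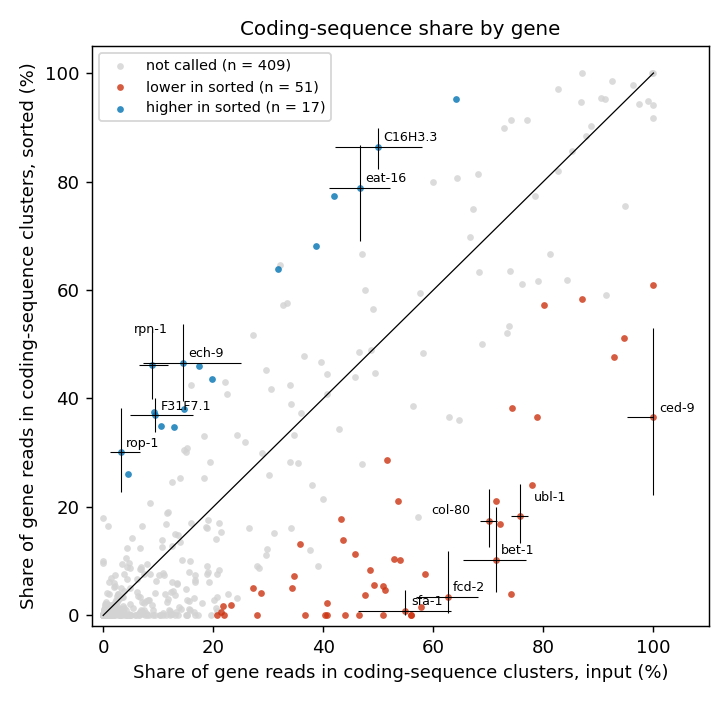
Share (%) of each gene's reads at its coding-sequence clusters in input and in sorted nuclei, for 477 genes, with Clopper-Pearson 95% intervals for the named genes and a line of equal share. The 51 genes called lower lie under the line at input shares above 20%, and the 17 called higher lie above it.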

How the data were processed

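The deposited values are unscaled read counts, 1 line for each stranded position of a library. The submitters' processing notes name TopHat without a version. Not given in the sources used here are the build, the read filters and how reads that map to several places or lie before A-rich sequence were handled. Per the labels, cDNA was primed with 24 T and amplified by 12 cycles of PCR. Positions printed are those of the deposited files. To place them on WBcel235 gene models (Ensembl release 115), the commonest offset between positions with at least 10 reads and protein-coding 3' ends was added in each of 203 windows of 0.5 Mb. It ran from -7 to 120 nt in 200 windows and from 4611 to 4612 nt in 3 at the end of V, and a median of 42.1% of positions lay within 3 nt of it. No position was converted for printing.

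The members and gene lists were chosen with earlier results of these data known. Positions were joined from the largest count down. The rest of a gene is all reads on the gene's strand from its start to 300 nt past its end, without its members. With 1 library per group, ratios over all clusters were called from exact binomial intervals and shares from exact Clopper-Pearson 95% intervals. The steps were checked on simulated data. Members named by rule were 8 each for the highest lower and lowest upper interval bound, 8 each for the most reads in input and in sorted nuclei, up to 3 per gene list, and those of 6 genes each way with share intervals farthest apart. Sites described within genes with several members, and those near another gene's end, were picked with their values in view. Alternatives changed the scaling (edgeR 4.0.16 for TMM, DESeq2 1.42.0 for median of ratios, or reads at annotated ends), clustering, read minimums, windows, isoforms and depth. Python 3.11.15, numpy 2.4.6, pandas 2.3.3 and scipy 1.17.1 were used.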

Additional observations from a re-analysis of the deposited data

How the results depend on the processing

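Of 81 alternative values for the counts, shares and medians, 53 stayed within the limits set, which are a factor of 1.5 for counts. With at least 10 reads 1502 members had 81 higher (5.39%, against 6.14% of all clusters) and 75 lower (4.99%, against 0.751%). The higher calls were then the more numerous, but the clusters added here were too small to be called lower, even with 0 sorted reads. Lower calls over all clusters stayed at 164. The order of the calls at this setting follows from the calling rule and the depths, so it shows no change of direction. With at least 50 reads 242 had 24 higher (9.92%, against 6.73%), 47 lower (19.4%, against 1.22%) and a median log2 ratio of -0.50. Windows with an offset of at most 5 nt held 122 members, 6 higher (4.92%, against 6.17%) and 11 lower (9.02%, against 0.865%). Each position counted once left 37 members, 0 higher and 0 lower, but none of all 2715 clusters was called either way in this setting. The members then had a median of -0.20, against 0.092 over all clusters, and shares of 0.256% and 0.250%. Without the 10 largest members the shares were 0.333% and 0.285%. Past 2-fold 101 were higher and 219 lower. At equal depth 440 members had a median of -0.043. With at least 10 reads in each library, which removes members low in either by construction, the median reversed to 0.51 over 270 members, with 12 higher (4.44%, against 4.25% of all clusters) and 8 lower (2.96%, against 0.302%). A gene share difference of 10 points gave 26 higher and 87 lower, and at least 50 gene reads gave 26 lower. Equal depth and the minimum in each library were chosen after the data were seen. TMM and median of ratios moved every log2 ratio by -0.076 and -0.070, giving 43 higher (6.17%, against 6.03% and 6.04%) and 86 lower (12.3%, against 1.23%), and scaling to reads at annotated ends by 0.10, giving 51 (7.32%, against 7.18%) and 68 (9.76%, against 0.937%). For 38 named members with reads in both libraries 333 values lay within the interval of the reported ratio and 5 outside it. Of all these, 2 moved over 1.5 times: vit-6 from 0.00883 to 0.0335 with 48 nt clusters, and eef-1A.1, which is not called, from 0.910 to 1.47 with 12 nt clusters. For the 12 named members with 0 reads in a library the 4-fold call was the same in 96 of 97 values and the 2-fold call in all 97. Removal of members before A-rich sequence was not run. No paired analysis was possible because each group held 1 library.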
